A study of Mus musculus with 8 samples.

Results

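The imprinted genes Mest, Peg3, Kcnq1ot1, Igf2r, Grb10 and Meg3 were followed through single cells of the pubertal mouse mammary gland. They are 6 of the 14883 gene lines measured, matched by symbol, and all 6 were found. The genes were selected on measured values of these same cells (their levels by cell class and their unevenness among basal cells), so what follows on class and on single cells is a description, with no test. The cells came from mice of 5 weeks, labelled only as of mixed strain, from whose glands ducts had been micro-dissected together with terminal end buds, the bulbs at which ducts elongate. Live cells were sorted singly into wells. The method was SORT-seq (CEL-seq2 run by robot), in which molecule tags let each transcript be counted once at its 3′ end. The 8 libraries are plate 2, libraries 1 to 4, and plate 1, libraries 1 to 4, each with 96 wells. No treatment, genotype or sex is given, and the labels do not say which library holds ducts or end buds, or how many animals were used.

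Imprinted genes are read from only 1 parental copy, chosen by DNA methylation laid down in the egg or sperm, and as a group they are best known for setting growth of the fetus and placenta. In the mouse Mest (a protein of the hydrolase fold family), Peg3 (a zinc finger protein) and Kcnq1ot1 (a long non-coding RNA that silences neighbouring genes in cis) are read from the paternal copy. Igf2r (a receptor that carries IGF2 to lysosomes for breakdown), Meg3 (a long non-coding RNA) and, in most tissues, Grb10 (an adaptor that dampens insulin and IGF receptor signalling) are read from the maternal copy. IGF signalling drives growth of the ducts at puberty. The ducts have an outer layer of contractile basal cells and an inner layer of luminal cells.

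Within the deepest library, plate 2 library 2, Mest and Grb10 had their highest transcript counts in the same 3 cells. In plate 2 library 4 the 3 cells richest in Mest held no Grb10. For each gene the 250 bases before 2 separate RefSeq transcription starts are shown, 5′ to 3′ on the gene's strand. A further Mest window in RefSeq, 30737803-30738052, overlaps the downstream window and is left out. The labels upstream and downstream order only the starts shown. GENCODE begins both genes further upstream, Mest at 30723547 (plus strand) and Grb10 at 12038683 (minus strand). Capitals mark each C followed by G, the pair of letters at which imprints are written and which reads the same on both strands. The sequences are RefSeq's, build GRCm38.p6.

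Mest, upstream start, chr6:30733256-30733505, plus strand: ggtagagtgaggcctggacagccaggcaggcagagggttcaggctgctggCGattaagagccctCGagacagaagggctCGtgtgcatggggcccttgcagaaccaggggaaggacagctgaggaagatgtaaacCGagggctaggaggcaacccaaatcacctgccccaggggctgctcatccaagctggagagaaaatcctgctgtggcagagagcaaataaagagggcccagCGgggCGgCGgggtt
Mest, downstream start, chr6:30737800-30738049, plus strand: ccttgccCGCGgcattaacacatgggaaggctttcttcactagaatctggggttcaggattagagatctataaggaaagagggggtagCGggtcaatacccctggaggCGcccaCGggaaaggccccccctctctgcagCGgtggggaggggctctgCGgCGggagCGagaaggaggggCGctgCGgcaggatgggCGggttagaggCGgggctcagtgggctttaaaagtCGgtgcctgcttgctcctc
Grb10, upstream start, chr11:12037421-12037670, minus strand: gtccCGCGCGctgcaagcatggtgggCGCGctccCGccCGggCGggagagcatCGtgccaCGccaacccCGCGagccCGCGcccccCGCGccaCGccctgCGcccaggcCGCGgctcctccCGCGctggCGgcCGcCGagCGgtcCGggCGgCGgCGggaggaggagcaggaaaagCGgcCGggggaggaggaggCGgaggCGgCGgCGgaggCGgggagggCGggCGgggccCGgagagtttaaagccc
Grb10, downstream start, chr11:12027972-12028221, minus strand: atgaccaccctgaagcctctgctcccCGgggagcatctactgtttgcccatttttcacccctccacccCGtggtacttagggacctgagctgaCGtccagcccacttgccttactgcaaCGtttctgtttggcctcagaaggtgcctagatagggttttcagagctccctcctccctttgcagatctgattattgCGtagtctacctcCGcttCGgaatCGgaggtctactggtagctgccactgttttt

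The pair CG occurred 7 times before the upstream Mest start and 14 times before the downstream one. Of 32851 windows of this length in the RefSeq table, 46.3% held at least 7 and 29.4% at least 14. The Grb10 windows held 40 and 8, counts reached by 1.31% and 43.0% of windows. The median window held 6, and 92.1% held at least 1. Because transcripts were counted at their 3′ ends, no value below says which start, or which parental copy, a transcript came from.

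In GENCODE M21 (mm10) Mest spans chromosome 6 from 30723547 to 30748465 on the plus strand, and its 3′ end overlaps Copg2 on the other strand over 912 bases. Peg3 lies on chromosome 7 from 6703892 to 6730431 (minus), Grb10 on chromosome 11 from 11930508 to 12038683 (minus), and Meg3, annotated as a lincRNA, on chromosome 12 from 109541001 to 109571726 (plus). Igf2r, on chromosome 17 from 12682406 to 12769664 (minus), overlaps the antisense RNA Airn over 28354 bases. Kcnq1ot1, on chromosome 7 from 143203458 to 143296549 (minus), lies whole inside Kcnq1 on the opposite strand. Whether reads were counted by strand is not given in the sources used here, so reads of such partners may not have been told apart. The partners were rare in kept cells: 4 transcripts of Copg2, 2 of Kcnq1, 22 of Airn and 8 of Rian, which follows Meg3.

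Of 768 wells, 114 held at least 1500 transcripts of at least 500 genes and were kept as cells, with a median of 4872 to 21255 transcripts per library. A cell was called basal when its Acta2, Tagln and Myl9 transcripts (smooth muscle genes) outnumbered those of Krt8, Krt18 and Krt19 (luminal keratins), and luminal in the reverse case. This gave 66 basal and 42 luminal cells, with 6 in neither class. Basal cells came almost entirely from libraries 2 and 4 (31 and 18 cells on plate 2, 8 and 7 on plate 1) and luminal cells from libraries 1 and 3 (10 and 12 on plate 2, 8 and 12 on plate 1), so class and library number cannot be told apart. The classes were checked with basal genes that the class rule did not use: Krt5, Krt14, Krt17 and Trp63 summed to 610, 316, 387 and 247 transcripts in basal cells, against 0 each in luminal cells. On plate 1, 8 of 16 basal cells held more transcripts of an endothelial, fibroblast or red blood cell marker list than of the basal and luminal lists together (5 in library 2, 2 in library 4, 1 in library 3), against 0 of 50 on plate 2. A single luminal cell, also on plate 1, was led by macrophage markers. Both marker sets of the class rule reached 10 transcripts in 6 kept cells, all on plate 2. Columns are named by well number and carry no cell barcode that libraries could share.

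Mest transcripts were found in basal cells of every library that held such cells and in no luminal cell. Per 10000 transcripts, Mest stood at 2.97 and 4.69 in the basal cells of plate 2 libraries 2 and 4, and at 4.71 and 2.61 in those of plate 1 libraries 2 and 4. It stood at 0 in the luminal cells of all 4 libraries. The basal levels averaged 3.74 ± 1.11 (SD, n = 4 libraries), and the groups of libraries did not overlap. In counts, 399 Mest transcripts among 1112335 in basal cells stood against 0 among 634520 in luminal cells. A count of 0 there allows up to 0.0473 per 10000 (3 transcripts over all 42 cells), and the basal level stood at 75.9 times that limit. The exact 95% lower limit of the ratio, which also counts the error of the basal level, was 61.4. Intervals and such limits cover counting error only.

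Depth differed between the classes, with a median of 14041.5 transcripts in basal cells and 9508 in luminal cells. With each cell thinned at random to 3000 transcripts, which left out 8 basal and 5 luminal cells, Mest was found in 17 of 56 basal cells (30.4%, exact 95% interval 18.8 to 44.1%) and in 0 of 37 luminal cells, which allows up to 8.11%. Unthinned, it was found in 54.7% of 64 basal cells and in 0 of 42 luminal cells. Outside these libraries, the single basal cell of plate 2 library 1 held 5 Mest transcripts among only 2404. That cell was called basal on 4 Acta2 transcripts against 1 of Krt18, and its basal and luminal marker lists both held 5 transcripts, so its class is weak. The basal cell of plate 1 library 3, which was led by red blood cell markers, held 1.

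**Figure D1:**
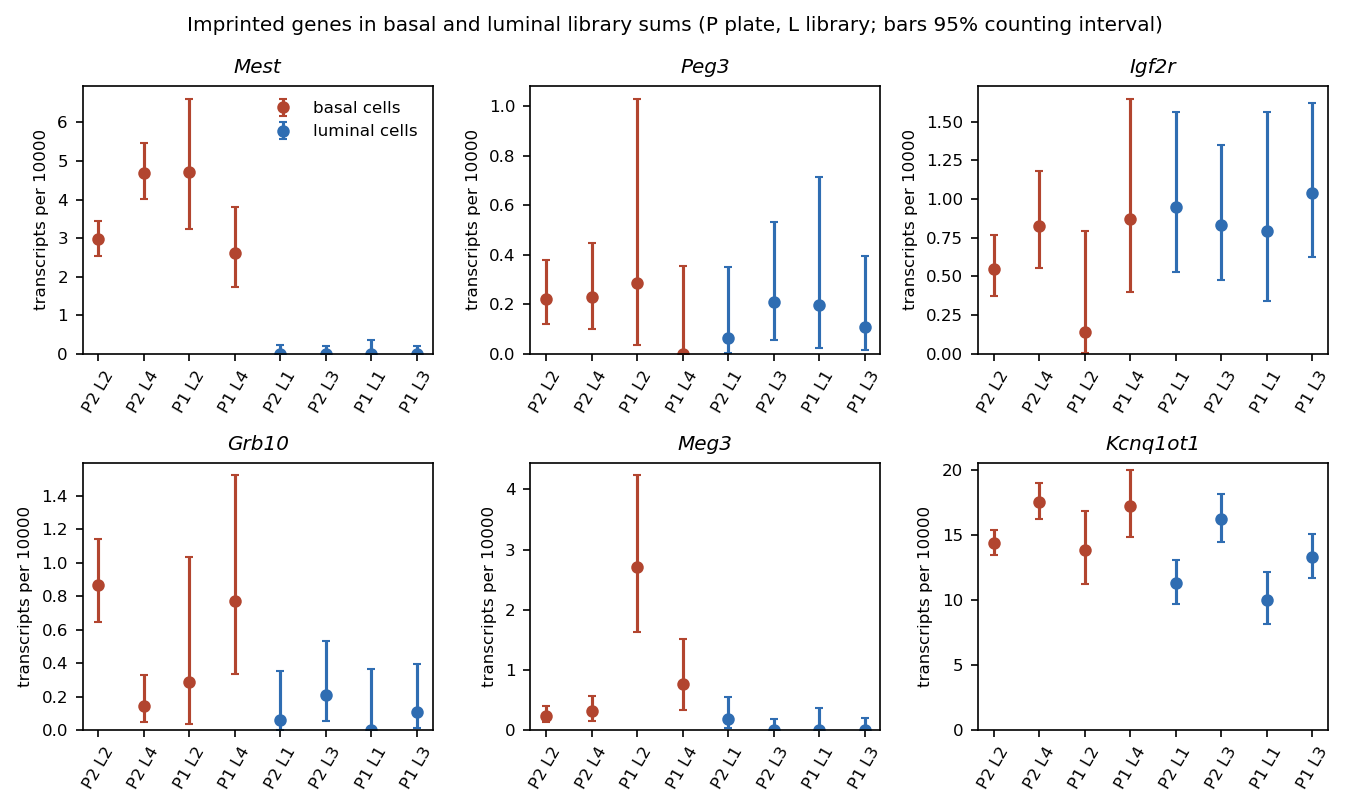
Transcripts per 10000 (vertical axes, each from 0) of the 6 imprinted genes in the summed basal cells (left, red) and luminal cells (right, blue) of each library (P, plate; L, library), with exact 95% counting intervals as bars. Mest is between 2.61 and 4.71 in the basal sums and at 0 in every luminal sum, while the levels of Peg3, Igf2r, Grb10 and Kcnq1ot1 overlap.

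Within the basal class Mest was concentrated in a few cells. In plate 2 library 4, 3 of 18 cells held 149 of 165 Mest transcripts (90.3%), with 74, 54 and 21 each, although the same 3 cells held only 33.1% of all transcripts. The other 15 cells held between 0 and 2. Both marker sets of the class rule reached 10 transcripts in 3 of the 18 cells, and the cell with 54 Mest was 1 of these. Whether it held more than 1 cell was not tested, and the splits below keep it. In plate 2 library 2, 6 of 31 cells held 131 of 174 (75.3%) with 33.6% of all transcripts: 30, 26, 24, 18, 18 and 15. No Mest was found in 12 of that library's cells and in 5 of library 4's. On plate 1, all 33 Mest transcripts of library 2 lay in 1 of 8 cells, a cell of 29724 transcripts that held 42.4% of the library's basal transcripts. That cell held 24 Acta2 transcripts but none of Krt5, Krt14, Oxtr or Myh11, so those 4 markers do not back its basal class. The level of 4.71 per 10000 given above for that library rests on it alone. In plate 1 library 4, 2 of 7 cells held all 27, 1 of them 21. None of the cells led by other cell types in those 2 libraries held Mest, and without them its level was 8.28 per 10000 in 3 cells of plate 1 library 2 and 2.74 in 5 cells of plate 1 library 4.

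**Figure D2:**
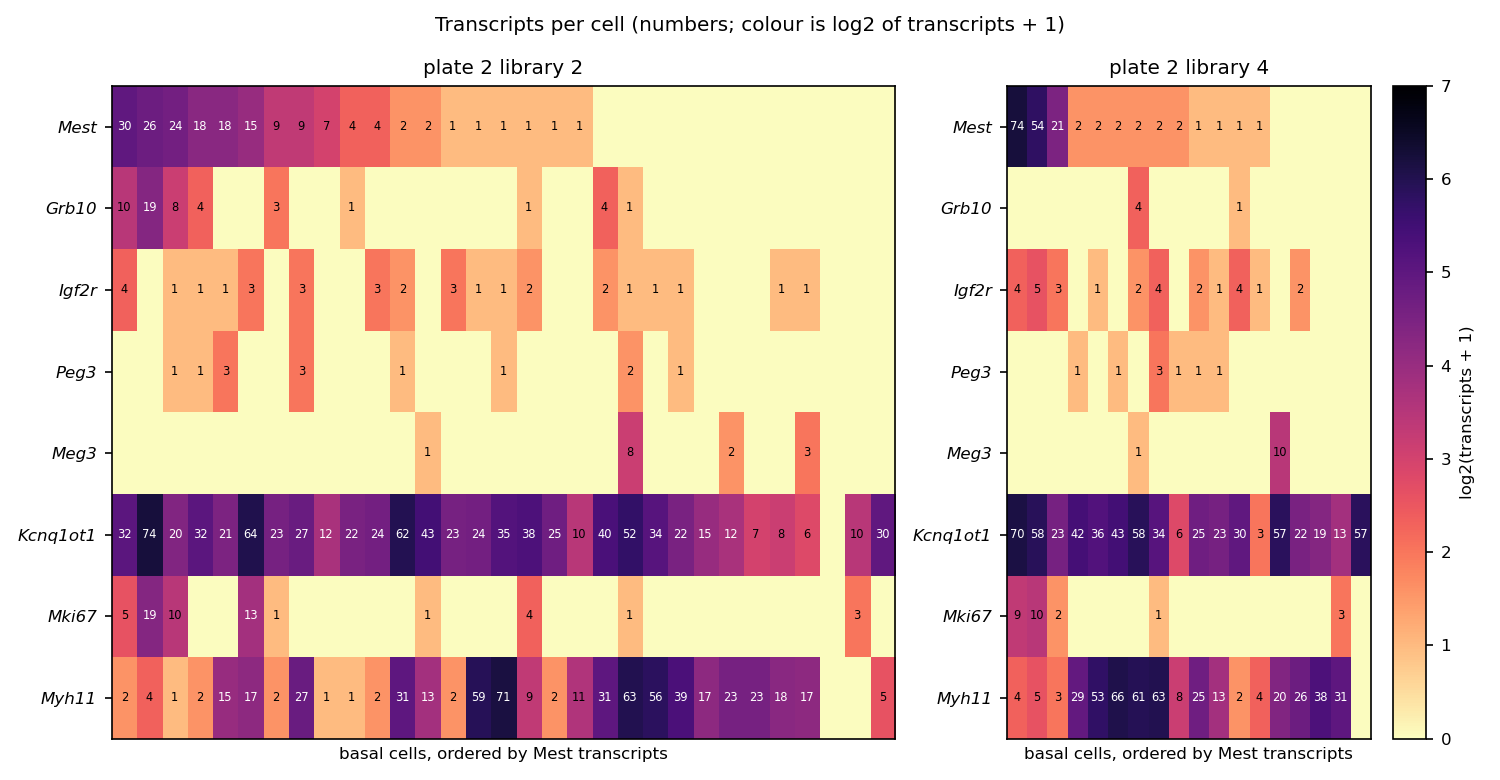
Transcripts per cell of the 6 genes and of Mki67 and Myh11 in the basal cells of plate 2 library 2 (31 cells, left panel) and library 4 (18 cells, right panel), 1 column per cell, ordered by Mest; colour is log2 of transcripts plus 1. The first 3 columns of library 4 (74, 54 and 21 Mest transcripts) all hold Mki67 and few Myh11 transcripts, and Grb10 gathers in the first columns of library 2 but not of library 4.

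The 3 cells richest in Mest in plate 2 library 4 were rich in transcripts of cell division and poor in those of contraction, but this did not hold in every library. The 3 leading cells of plate 2 library 4 held 9, 10 and 2 transcripts of Mki67, a nuclear protein of dividing cells. The same cells held 4, 5 and 3 of Myh11, the smooth muscle myosin heavy chain, whose median over the library's cells was 22.5. A list of further proliferation genes stood at 54.1, 38.9 and 36.4 per 10000 in these cells, and a list of contractile genes at 17.2 to 18.2. The 6 leading cells of plate 2 library 2 were mixed: Mki67 was at 5, 19, 10, 0, 0 and 13 transcripts and Myh11 at 2, 4, 1, 15, 2 and 17. The single Mest-positive cell of plate 1 library 2 held 6 Mki67 transcripts, the only ones of that library's basal cells, and no Myh11, with the proliferation list at 103.6 per 10000. Plate 1 library 4 had no Mki67 transcript, so there Mest was present without it. In its leading cell, with 21 Mest transcripts, the proliferation list stood at 11.3 per 10000. That cell held 30 of Myh11, the highest count of that library, but among 54770 transcripts. Per 10000 its Myh11 stood at 5.48, under the median of 5.99 over the library's cells, so the split by Myh11 below counts it as low.

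Split by Mki67, Mest was higher in the cells with the transcript in both plate 2 libraries. In library 2 it stood at 4.73 per 10000 in 9 cells with Mki67 and 1.86 in 22 without, a ratio of 2.55. In library 4 it stood at 10.1 in 5 cells with Mki67 and 0.693 in 13 without, a ratio of 14.6. Cell by cell, the medians were 3.21 with Mki67 and 0.327 without it in library 2, and 10.3 and 0.749 in library 4. The groups overlapped: 2 of 9 and 1 of 5 cells with Mki67 had no Mest, and 12 of 22 and 9 of 13 cells without Mki67 had some. Finding Mki67 depends on depth, and cells with it were deeper, with median totals of 22009 against 15951 transcripts in library 2 and 20600 against 14530 in library 4. The proliferation list without Mki67 stood at 41.7 against 18.96 per 10000 in library 2 and at 37.2 against 16.2 in library 4.

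Split at each library's median of Myh11, Mest was higher in the low cells of every library where both sides held at least 3 cells. It stood at 4.15 per 10000 in 16 Myh11-low cells and 0.778 in 15 Myh11-high cells of plate 2 library 2, a ratio of 5.33. In plate 2 library 4 the levels were 6.98 in 9 low and 0.770 in 9 high cells, a ratio of 9.07, and in plate 1 library 4 they were 3.05 in 4 low and 0 in 3 high cells. In library 4 of plate 2 that contrast rested on the 3 leading cells, since the median cell stood at 1.08 in the low and 0.771 in the high group, and the number of cells with Mest was 7 of 9 and 6 of 9. In library 2 it was broader: 13 of 16 low cells and 6 of 15 high cells held Mest, with medians of 3.22 and 0. Low cells were deeper, with median totals of 21923 against 10595 in library 2 and 19683 against 14530 in library 4. Over the 3 libraries the difference averaged 4.21 ± 1.74 per 10000 (SD, n = 3).

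In plate 1 library 4, 2 of the 4 low cells were led by endothelial markers, and the endothelial list stood at 10.96 per 10000 in low and 1.32 in high cells. Without the cells led by other types only the 2 libraries of plate 2 could be split, with a mean difference of 4.79 ± 2.01 per 10000 (SD, n = 2). Marker lists of other cell types moved less with this split on plate 2. The Schwann list, which rests there on 3 of 6 genes, stood at 4.88 in low and 3.69 in high cells of library 2 and at 4.46 and 3.62 in library 4. Luminal cells held the same list at 3.22 per 10000. The fibroblast list stood at 1.78 and 1.31 in low and high cells of library 2 and at 1.31 and 1.85 in library 4, and the endothelial list was at or under 0.231 on both sides. Their part in the Mest difference was not tested.

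Split by total transcripts, the libraries gave different pictures. In plate 2 library 2 Mest was at 2.99 per 10000 in the 15 deeper cells and 2.90 in the 16 shallower ones, a ratio of 1.03. Library 4 of that plate had it at 5.87 in the deeper and 0.742 in the shallower cells, a ratio of 7.90. On plate 1 Mest was found only in the deeper cells, at 5.81 in library 2 and 2.98 in library 4, against 0 in the shallower cells of both. Ranked over cells as a description, Mest and Myh11 had Spearman coefficients of -0.51 over 31 cells of library 2 and -0.19 over 18 cells of library 4. After thinning they were -0.25 over 29 and -0.54 over 16 cells. For Mest and Mki67 the coefficients were 0.33 and 0.38 unthinned, and 0.26 and -0.22 thinned. The cells of a library share its preparation and range of depth.

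**Figure D3:**
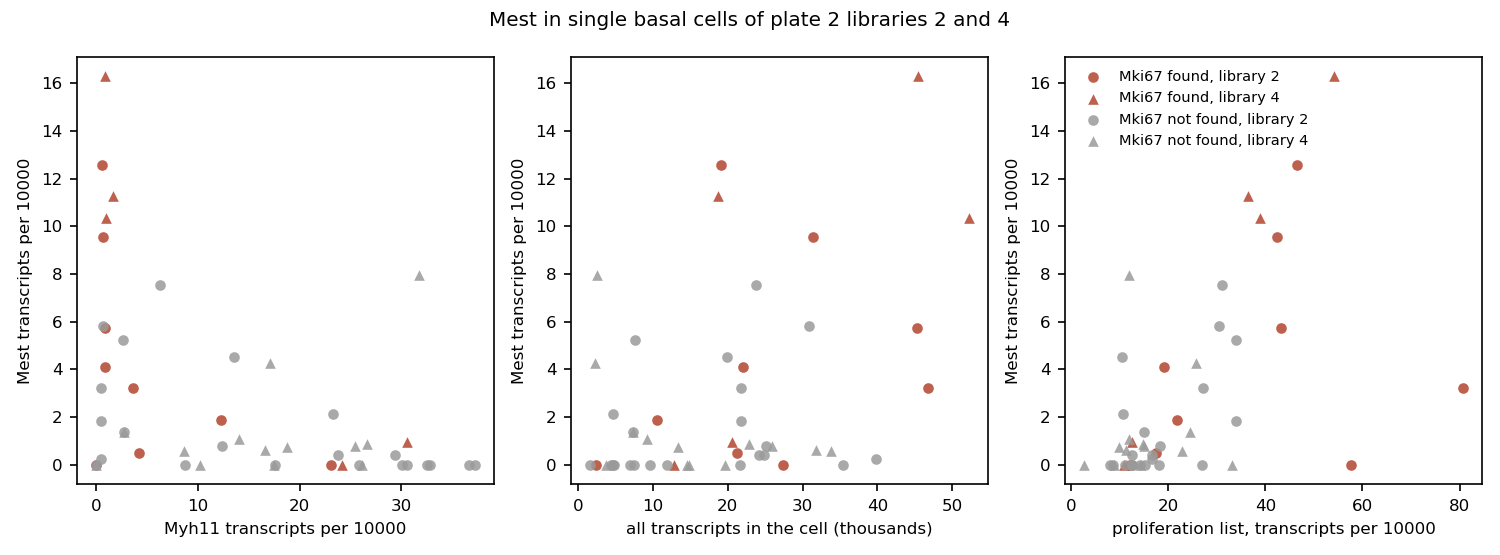
Mest per 10000 transcripts (vertical axes) in single basal cells of plate 2 libraries 2 (circles) and 4 (triangles) against Myh11 per 10000, against the total of transcripts in the cell, and against the proliferation list per 10000; red marks cells with an Mki67 transcript, grey those without. All 5 cells above 8 Mest per 10000 lie at the left edge of the Myh11 axis and are red, and the deepest cell at 0 holds 35425 transcripts. The cut at 8 was set after the values were seen. Just under it, a library 4 cell at 7.95 (2 Mest among 2517 transcripts) has Myh11 at 31.8 and is grey. A library 2 cell at 7.55 has Myh11 at 6.29 and is grey too.

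The genes whose levels ran most like Mest were found by ranking 1937 genes by the mean of their Spearman coefficients within the 2 plate 2 libraries, over 45 cells thinned to 3000 transcripts (29 and 16). The highest were Hsp90b1 (a chaperone of the endoplasmic reticulum) at 0.58, Cfl1 (the actin-severing protein cofilin) at 0.57, Hmgn1 (a nucleosome-binding protein) at 0.56 and S100a10 (a partner of annexin A2) at 0.52. Eif3a (a subunit of a translation initiation factor) followed at 0.52, then Odc1 (an enzyme of polyamine synthesis) at 0.51, Myo18a (an unconventional myosin) at 0.50 and Pebp1 (an inhibitor of Raf kinase) at 0.50. The lowest were the contractile genes Tagln at -0.58 and Tpm1 at -0.56, with Lifr (the receptor of leukaemia inhibitory factor) at -0.56 and Igfbp5 (an IGF-binding protein) at -0.56. Tagln was also used to class the cells. Over all ranked genes the median was 0.0078. Mest itself was found in 31.1% of the thinned cells, and extremes of a ranking of this length are described, not tested. Kcnq1ot1, the only other member common enough to rank, had a mean coefficient of 0.11, at rank 610.

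Grb10 had its highest counts in the cells that led for Mest by count in plate 2 library 2, but not in plate 2 library 4. Per 10000 transcripts it stood at 0.869 and 0.142 in the basal cells of plate 2 libraries 2 and 4 and at 0.286 and 0.772 in those of plate 1 libraries 2 and 4. In luminal cells it stood at 0.0632 and 0.208 in plate 2 libraries 1 and 3 and at 0 and 0.109 in plate 1 libraries 1 and 3. The groups overlapped, since basal plate 2 library 4 was below luminal plate 2 library 3. Pooled, 66 transcripts in basal and 7 in luminal cells gave a ratio of 5.38 (exact 95% interval 2.47 to 13.9). Of the 66, 51 came from plate 2 library 2, and without that library the ratio was 2.59 (0.993 to 7.50), while without luminal plate 2 library 3 it was 8.74 (2.86 to 43.5). In thinned cells it was found in 7.14% of basal and 5.41% of luminal cells, so a difference in how many cells held it was not detectable at this depth.

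In plate 2 library 2, 3 of 31 cells held 37 of 51 Grb10 transcripts (72.5%), and they were the 3 cells that led for Mest, with 10, 19 and 8 Grb10 transcripts beside 30, 26 and 24 of Mest. Per 10000 the match was looser: those cells stood at 9.56, 5.75 and 12.6 of Mest, while a cell at 7.55 had no Grb10. Grb10 stood at 1.86 per 10000 in that library's cells with Mki67 and 0.249 in those without, and at 1.31 in Myh11-low and 0.0486 in Myh11-high cells, where there was 1 transcript. In library 4 of plate 2, with only 5 Grb10 transcripts, the order was the other way: 0 in cells with Mki67 and 5 in those without, and 1 in Myh11-low and 4 in Myh11-high cells. The 3 Mest-rich cells of that library held no Grb10. In plate 1 library 4 the same 2 cells held all 27 Mest and all 8 Grb10 transcripts, and in plate 1 library 2 the Mest-positive cell had no Grb10.

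Igf2r was found in both classes, with overlapping levels. It stood at 0.545 and 0.824 per 10000 in the basal cells of plate 2 libraries 2 and 4 and at 0.143 and 0.869 in those of plate 1. In luminal cells it stood at 0.947 and 0.831 in plate 2 libraries 1 and 3 and at 0.792 and 1.04 in plate 1 libraries 1 and 3. Pooled, 71 transcripts in basal and 58 in luminal cells gave a ratio of 0.698 (0.487 to 1.01). Among basal cells of plate 2 it was spread widely: 18 of 31 cells in library 2 and 11 of 18 in library 4 held it, none with more than 5 transcripts. It stood at 0.525 in Myh11-low and 0.583 in Myh11-high cells of library 2, and at 0.811 and 0.847 in library 4. With Mki67 it was at 0.487 and without at 0.582 in library 2, and at 1.07 and 0.643 in library 4. The 3 leading cells held 31.3% and 44.8% of the Igf2r transcripts of libraries 2 and 4, against 46.0% and 90.3% of Mest for its own 3 leading cells.

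Peg3 was sparse in both classes, with 23 transcripts in basal and 9 in luminal cells. The basal levels were 0.222 and 0.227 per 10000 in plate 2 libraries 2 and 4 and 0.286 and 0 in plate 1 libraries 2 and 4. The luminal levels were 0.0632 and 0.208 on plate 2 and 0.198 and 0.109 on plate 1, within the basal range, and the pooled ratio was 1.46 with an interval of 0.650 to 3.58. In basal cells of plate 2 no cell held more than 3 transcripts, and its level was lower in Myh11-low than in Myh11-high cells, where Mest was higher: 0.131 in low and 0.389 in high cells of library 2 and 0.0901 and 0.462 in library 4, from 5 against 8 and 2 against 6 transcripts. Cell by cell it did not run against Mest. Peg3 was found in 6 of 19 cells with Mest and 2 of 12 without in library 2, and in 6 of 13 and 0 of 5 in library 4, and the cells with Mest were deeper. The Spearman coefficients of Peg3 and Mest were 0.25 over 31 and 0.16 over 18 cells. Of the leading Mest cells, 3 of the 6 in library 2 and none of the 3 in library 4 held Peg3.

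Meg3 was higher in basal than in luminal libraries, but much of it lay in cells led by markers of other types. It stood at 0.239 and 0.313 per 10000 in the basal cells of plate 2 libraries 2 and 4 and at 2.71 and 0.772 in those of plate 1 libraries 2 and 4. In luminal cells it was at 0.189 in plate 2 library 1, from 3 transcripts in 1 cell, and at 0 in the other 3 libraries. The levels did not overlap, and 52 transcripts against 3 gave a pooled ratio of 9.89 with a wide interval of 3.20 to 49.5. Leaving out plate 2 library 2 gave 15.3, and all 3 luminal transcripts came from plate 2 library 1. All 19 Meg3 transcripts of plate 1 library 2 lay in 1 cell led by fibroblast markers, and without the cells led by other types its basal level there was 0, below that of luminal plate 2 library 1. Over all 15 kept cells led by another type Meg3 stood at 5.33 per 10000. Their 39 transcripts were those 19 and 20 in the 4 cells of the same library in neither class.

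Even on plate 2, where no kept cell was led by another type, Meg3 came in few cells: 4 of 31 in library 2 and 2 of 18 in library 4, with 8 of 14 and 10 of 11 transcripts in 1 cell. These were not the Mest-rich cells, of which none among the 6 of library 2 or the 3 of library 4 held Meg3. In library 2 all 14 Meg3 transcripts were in Myh11-high cells and none in Myh11-low ones, whereas in library 4 there were 10 in low and 1 in high cells.

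Kcnq1ot1 was found in nearly every cell of both classes. It stood at 14.4 and 17.6 per 10000 in the basal cells of plate 2 libraries 2 and 4 and at 13.8 and 17.3 in those of plate 1 libraries 2 and 4. In luminal cells it stood at 11.3 and 16.3 in plate 2 libraries 1 and 3 and at 10.002 and 13.3 in plate 1 libraries 1 and 3. The averages were 15.8 ± 1.92 in basal and 12.7 ± 2.73 in luminal libraries (SD, n = 4 each), and the groups overlapped. Pooled, 1742 transcripts in basal and 836 in luminal cells gave a ratio of 1.19 (1.09 to 1.29). With 1 library left out the ratio was 1.12 to 1.32. The interval covers counting error only, not the spread between libraries. Thinned to 3000 transcripts, 96.4% of basal and 94.6% of luminal cells held it.

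Unlike Mest, Kcnq1ot1 was lower per transcript in deep cells than in shallow ones in all 4 basal libraries. The deeper and shallower basal cells stood at 12.4 and 20.5 in plate 2 library 2, at 15.5 and 24.5 in plate 2 library 4, at 10.7 and 27.2 in plate 1 library 2, and at 16.8 and 20.6 in plate 1 library 4. Some cells held very little of it: the Mest-positive cell of plate 1 library 2, with 29724 transcripts, had 0. At the other end, wells under 500 transcripts, which were not kept, held 563 Kcnq1ot1 transcripts at 67.6 per 10000, against 15.7 in basal and 13.2 in luminal cells. Myh11-low and Myh11-high cells stood at 12.1 and 18.8 in plate 2 library 2 and at 17.8 and 17.2 in library 4.

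In the wider set of imprinted genes some were higher in the basal libraries, some lower, and most overlapped. No value here says whether a listed gene is imprinted in these cells. Of 60 further imprinted genes on the list, 45 had a line in the table, 30 had 10 or more transcripts in kept cells and 2 had none. In 3 of the 45 the basal libraries were all above the luminal ones, in 4 all below, and in 38 they overlapped. Over all genes with 10 or more transcripts, 7.84% of 10784 lay above and 6.53% below without overlap, and of the 6 members Mest and Meg3 lay above. On that same base the counts were 3 above (10.3%) and 4 below (13.8%) of 29 listed genes. Those shares are printed as background, and since the members were chosen with these levels known nothing is read from them.

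Of the 10 listed genes with the most transcripts, Gnas, Cdkn1c and H13 did not overlap between the classes. Gnas (the stimulatory G protein alpha subunit) stood at 20.3 and 16.9 in plate 2 and 16.4 and 16.5 in plate 1 basal cells, against 14.5 and 13.5 in plate 2 and 14.9 and 11.1 in plate 1 luminal cells. Cdkn1c (a cyclin-dependent kinase inhibitor, maternally read) had 88 transcripts in basal cells and 0 in luminal cells, with basal levels of 0.801 and 0.739 on plate 2 and 0.428 and 1.16 on plate 1. H13 (signal peptide peptidase) stood at 0.648 and 0.739 in plate 2 and 0.571 and 0.290 in plate 1 basal cells, against 1.58 and 1.51 in plate 2 and 0.891 and 1.09 in plate 1 luminal cells. The other 7 (Cd81, Ube3a, Trappc9, Pon2, Casd1, Osbpl5 and Commd1) overlapped. Within the basal class Cdkn1c did not follow Mest in every library. Myh11-low and Myh11-high cells stood at 0.866 and 0.681 in plate 2 library 2, and at 1.24 and 0.662 in plate 1 library 4, from 11 and 1 transcripts. In plate 2 library 4 the order was the other way, at 0.180 and 1.69, where its counts were 4 and 22.

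**Figure D4:**
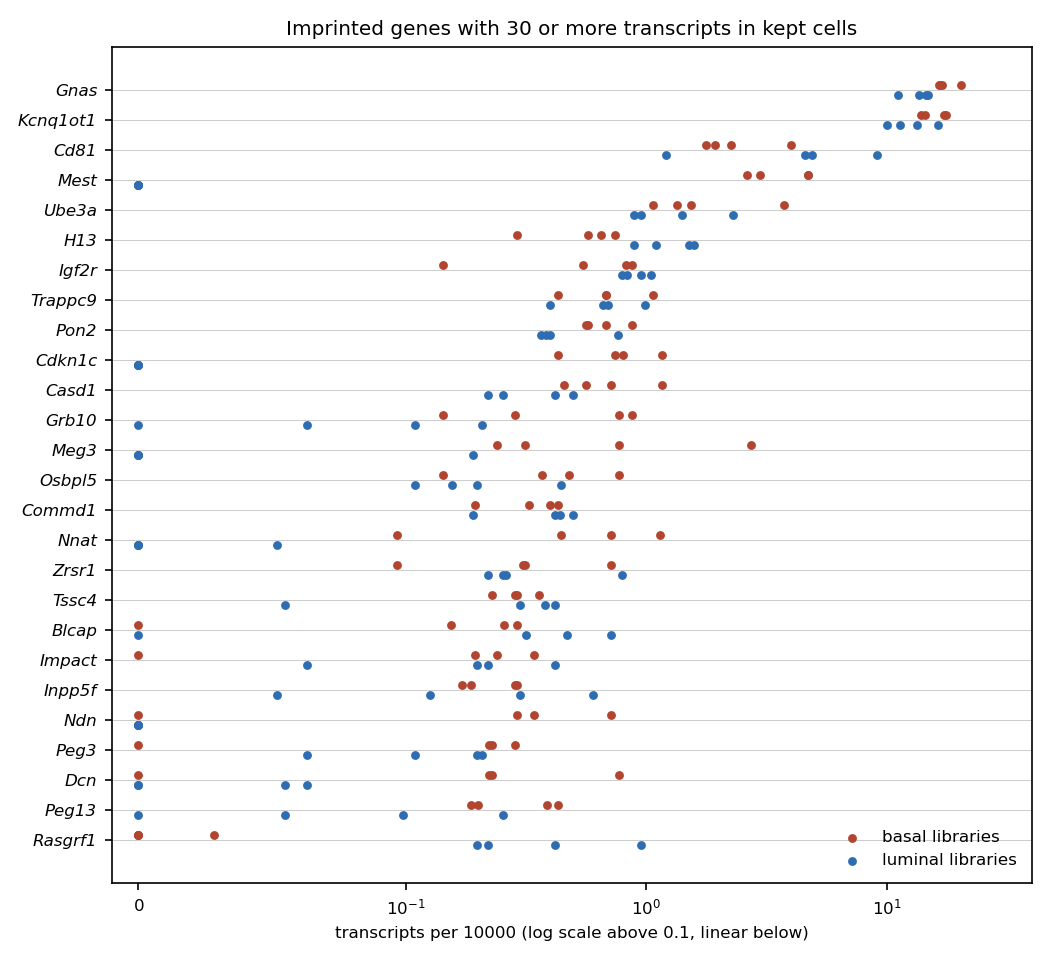
Transcripts per 10000 (horizontal axis, logarithmic above 0.1 and linear below) of imprinted genes with at least 30 transcripts in kept cells; each point is the summed basal (red, upper) or luminal (blue, lower) cells of 1 library. Mest, Cdkn1c and Ndn have all 4 luminal points at 0, while most genes, among them Kcnq1ot1 and Igf2r, overlap.

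The plates are the only grouping of libraries that the labels give, and class and choice of members did not use it. In basal cells no gene passed an adjusted p of 0.05 between plate 2 and plate 1 (0 of 4668 tested, or 0%, by edgeR's quasi-likelihood test, 2 libraries against 2; 389 had an unadjusted p under 0.05, and DESeq2 called 37). Mest averaged 3.83 ± 1.22 per 10000 (SD, n = 2) on plate 2, against 3.66 ± 1.49 (SD, n = 2) on plate 1, a log2 difference of 0.10 ± 0.43 (SE, edgeR adjusted p = 0.961), which became -0.35 ± 0.52 without the cells led by other types. The log2 differences were 0.28 ± 0.69 for Igf2r, -0.04 ± 0.94 for Grb10 and 0.06 ± 0.31 for Kcnq1ot1 (edgeR adjusted p of 0.928, 0.991 and 0.966). With errors of this size the plates are not shown to be alike for these genes.

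Meg3 had the lowest p of the members, at -2.57 ± 0.66 on the log2 scale, plate 2 minus plate 1, which did not pass (edgeR adjusted p = 0.439). Its mean was 0.276 ± 0.0524 per 10000 (SD, n = 2) on plate 2, against 1.74 ± 1.37 (SD, n = 2) on plate 1. Leaving out plate 1 library 4 gave -3.18 with an edgeR adjusted p of 4.6e-07, but plate 1 was then 1 library, assumed to vary like those of plate 2, with all 19 Meg3 transcripts in 1 cell. With no filter on low counts the edgeR adjusted p was 0.0081. It was 0.446 by DESeq2, 0.669 with library number as a block, and 0.43 to 0.857 with each of the other 3 libraries left out. The endothelial list in the same basal sums stood at 0.0852 and 0.114 on plate 2 against 42.3 and 9.56 on plate 1, and the fibroblast list at 1.62 and 1.51 against 15.6 and 1.54. Without the cells led by other types Meg3 no longer passed the filter on low counts in this fit. Peg3 did not pass that filter in the main comparison either.

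In luminal cells again no gene passed between plate 2 and plate 1 (0 of 3783, or 0%, by edgeR; 120 had an unadjusted p under 0.05, and DESeq2 called 1). Igf2r differed by -0.11 ± 0.49 and Kcnq1ot1 by 0.20 ± 0.37 on the log2 scale (SE, edgeR adjusted p of 0.999 for both). Nothing in the labels says that libraries came from separate animals, so the p-values here reflect only library-to-library spread, possibly of technical origin.

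Between the classes, the same fit over 4 basal and 4 luminal library sums called 505 of 3420 genes (14.8%), 276 higher in basal (8.07%) and 229 lower (6.7%). Cells had been classed by their own transcripts, so this serves as background and nothing is read from it for the members. Of the 6, Mest, Igf2r and Kcnq1ot1 passed its filter on low counts, and Igf2r and Kcnq1ot1 differed by -0.52 ± 0.39 and 0.31 ± 0.21 on the log2 scale (SE), neither called. Of the 45 further imprinted genes 5 were tested and 0 called, with a median log2 difference of 0.02 against -0.00012 over all genes tested.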

How the data were processed

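Single mammary cells were measured in 8 libraries. The deposited table holds expected counts, made by the authors: estimated transcript molecules per gene and well, not scaled to depth. Of 533078 values above 0, 533073 lie on the scale of a correction for molecules that share a 4-base tag (tolerance 1e-06). The submitters' processing notes list BWA 0.6.2-r126 and the build mm10, with no role given, and other steps are not stated.

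Values were rounded to whole counts, and totals left out 81 spike-in lines. Wells were kept at 1500 transcripts and 500 genes or more. No doublet caller was run on so few cells, and cells with 10 or more transcripts of both marker sets were left out as an alternative. Counts were summed per library and class (at least 5 cells) and fitted over all genes by the quasi-likelihood test of edgeR 4.0.16 after TMM scaling and its filterByExpr filter (R 4.3.3), and p-values were adjusted by Benjamini-Hochberg with a threshold of 0.05. An alternative used DESeq2 1.42.0. The edgeR steps were tested on simulated data. Thinning to 3000 transcripts used a fixed seed. Levels per 10000 have exact 95% intervals. Member genes are always named, and of the other imprinted genes the 10 with the most transcripts are named. Genes like Mest are those found in 25% or more of cells, ranked by mean within-library Spearman coefficient. Members, lists and tests were chosen with earlier results of these data known. Library numbers were not taken to pair the libraries across plates, since the labels do not say that they do. Promoter windows are from RefSeq.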

Additional observations from a re-analysis of the deposited data

Results flagged for a closer look

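Imprinted transcripts also appeared in the 654 wells that were not kept as cells. There Mest had 11 transcripts, Igf2r 14, Grb10 4 and Meg3 10, against 0 of Peg3. Kcnq1ot1 had 1016 in the same wells, or 64.0 per 10000, against 15.7 in kept basal cells and 13.2 in kept luminal cells. The wells under 500 transcripts alone held 563 of them in 579 wells. These wells hold no labelled control, and the values are above the limit that a count of 0 allows.

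Meg3 in the luminal cells of plate 2 library 1, at 0.189 per 10000, lay apart from the other 3 luminal libraries, all at 0. It rests on 3 transcripts of 1 cell. With the other 3 at 0, the rule flags any count above 0 in the remaining library, so nothing is read from the flag.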

How the results depend on the processing

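Counts of genes called moved with the settings more than the members did. Between plate 2 and plate 1 in basal cells, DESeq2 called 37, no filter on low counts 174, wells of 500 or more transcripts 4, and leaving out 1 library 34 to 866 (94 without plate 1 library 2, 866 without plate 1 library 4, 39 without plate 2 library 2, 34 without plate 2 library 4), against 0. In luminal cells DESeq2 called 1, no filter 53 and leaving out 1 library 0 to 102. Between the classes DESeq2 called 1037, no filter 1511, leaving out the cells led by other types 835, plate 2 libraries only 939, and leaving out 1 library 436 to 848 (848 without plate 1 library 2, 761 without plate 1 library 1), against 505. With library number as a replicate block, 11 genes were called in basal and 0 in luminal cells. The deviations of same-numbered libraries correlated at -0.0154 and -0.175, so the numbers were not taken as pairs. A crossed replicate block in luminal cells, chosen after seeing the data like the plate 2 fit, called 37. No paired analysis by library number was possible between the classes because class and library number coincide. With plate as a covariate 502 genes were called between them.

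Plate differences of members that changed sign were small or rested on 1 library. In basal cells Mest was -0.35 without cells led by other types and -0.20 to 0.60 with 1 library left out. Kcnq1ot1 was -0.048 to 0.34 with 1 library left out. Igf2r was -0.32 to 2.32 and Grb10 -0.41 to 1.08 without either library of plate 1 in turn, and neither passed the filter on low counts without a library of plate 2. Grb10 was 0.15 with no filter, 0.030 with wells of 500 or more transcripts, 0.030 without cells led by other types and 0.18 without cells of both marker sets, and Kcnq1ot1 -0.19 with wells of 500 or more. In luminal cells Igf2r was -0.25 to 0.091 and Kcnq1ot1 -0.14 to 0.47. The cause was not tested. Meg3 kept its direction at -3.18 to -1.44.

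The Mest differences within basal cells kept their direction on average. They were 6.13 per 10000 for Mki67 (2.88 to 9.39 with 1 library left out), 4.21 for low Myh11 (3.21 to 4.79) and 3.50 for high totals (2.73 to 4.64). Thinned to 3000 transcripts they were 2.97 in the 1 library that could be split, 3.31 over 2 libraries and 2.88 over 3. With wells of 500 or more transcripts they were 6.16, 4.16 and 2.32, and for high totals the lowest of 4 libraries stood at -0.046. Without cells led by other types the difference for high totals was 2.60 ± 3.56 (SD, n = 2 libraries). These splits were not repeated without cells of both marker sets. With few cells per library and few transcripts per gene, depth limits what can be said of single cells. Igf2r was found in 51.6% of 64 basal cells unthinned, and in 19.6% of the 56 deep enough to be thinned. For Peg3 these shares were 23.4% and 3.57%, and for Meg3 14.1% and 12.5%. The shares are over different cells, so the change is not due to thinning alone.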

Other observations

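Among listed imprinted genes outside the naming rule, picked here after their values were seen, Nnat had 60 transcripts in basal cells and 1 in luminal cells, and Ndn had 34 and 0. Rasgrf1 had 1 in basal and 29 in luminal cells, and Slc22a18 had 0 and 16. Igf2, the ligand cleared by Igf2r, had 0 transcripts in kept cells, and H19 had 16, all in the basal cells of plate 2 library 4.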
